A study of Mus musculus with 106 samples.

Results

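The spleen libraries of mice housed at 22 °C were compared, gene by gene, with the libraries of 7 other tissues of the same table to find the genes that set the spleen apart. The members were the 3 spleen libraries labelled RT (room temperature), of 106 libraries in the whole series, and they were set against 20 RT libraries: 3 each of brown adipose tissue (BAT), subcutaneous adipose tissue (SAT), visceral adipose tissue (VAT), hypothalamus, ileum and liver, and 2 of brain (replicates 1 and 3). All mice were wild type male C57BL/6 mice (C57BL/6J in the study's methods), sampled at week 11 of age by the labels, with no agent or transgene. Each library was made from total RNA of tissue pooled from 2 mice, and the sources do not say which tissues came from the same animals, so the p-values measure the spread between these libraries. The libraries of mice housed at 10 °C, after stays at 18 and 14 °C, were used only to repeat the count of spleen genes in other libraries. Spleen totals were 13118205 to 15440156 gene counts and those of the other tissues 4262403 to 25964912, the lowest being VAT replicate 3.

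The spleen filters blood and is a lymphoid organ at the same time. Its red pulp holds macrophages that take up old red blood cells and recycle their iron, and in mice it also makes red blood cells, platelets and granulocytes. Its white pulp holds B cell follicles and T cell zones laid out by chemokines of stromal cells, with the marginal zone around it, and the organ forms under stromal transcription factors such as Tlx1.

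Levels are given as CPM, read counts scaled to library size with TMM factors, in the order of spleen replicates 1, 2 and 3. Fold changes are on the log2 scale with their standard error (SE), from the quasi-likelihood F-test of edgeR, and p-values were adjusted over all genes by the Benjamini-Hochberg method. A gene was called where the adjusted p was under 0.05 and the fold over 1.5. The nearest tissue of a gene is the one with the smallest of the 7 log2 fold changes of spleen over a tissue. In bulk tissue, a larger share of a cell type and more RNA per cell of that type cannot be told apart.

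Apart from pancreatic enzyme genes that were high in part of the spleen libraries, genes of red blood cell formation stood furthest above every other tissue, with B cell genes, the stromal factor Tlx1 and granulocyte and platelet genes also at least 4-fold above each of them. Of 17212 genes tested, 4469 (26%) were higher and 5341 (31%) lower in spleen than the mean of the 7 tissues. The balance of the 2 directions depended on the processing: 45.6% of the calls were higher, against 51.5% with no filter on low genes, 45.5% to 50.4% when single libraries were left out (50.2%, 50.3% and 49.8% without spleen replicate 1, 2 or 3, and 50.4% without brain replicate 3) and 67% when counts were scaled by library size alone. Under that scaling the median log2 fold change of all genes moved from -0.215 to 0.32. A total of 1347 genes (7.83%) were higher in spleen than in each tissue taken singly, 434 (2.52%) were at least 4-fold higher than each, and 811 (4.71%) were lower than each. The same numbers with library size scaling were 2360, 673 and 333, and all 1347 and all 434 genes were among the former 2 sets.

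Genes known from another organ, the pancreas, stood at the top of the ranking. Genes of its acinar cells, which make digestive enzymes, summed to 12.5, 1647 and 169 CPM over 11 listed genes, so that spleen replicate 2 stood far above replicate 3 and replicate 1 was at the level of SAT (6.5 to 13.2 CPM). The trypsinogen Prss2 was at 0.182, 146 and 14.5 CPM, with at most 1 count in any of the 20 other libraries. Try4, another trypsinogen, was at 0, 43 and 4.24 CPM and had 0 counts in the 20 other libraries, which puts it at least 140-fold higher in spleen. The elastase Cela3b, the carboxypeptidases Cpa1 and Cpb1, the chymotrypsinogen Ctrb1, the trypsinogen Try5 and the lipase Cel were likewise lowest in replicate 1, at no more than 0.228 CPM, and highest in replicate 2, at 52.6 to 218 CPM. Try4 and Try5 are near copies of other trypsinogens and may share reads with them. In all, 9 of the 11 genes were at least 4-fold higher in spleen than in each tissue, and 7 without spleen replicate 2. The 10 °C spleen libraries differed as widely, with 921, 11.4 and 3239.9 CPM. Spleen replicate 3 alone also held ileum enterocyte genes, whose 6 listed members summed to 2.32, 3.5 and 77.7 CPM in spleen and to 6669.7 to 7207 CPM in ileum. What these libraries add to the other results was not tested. Without replicate 2 a total of 1464 genes were higher than each tissue and 472 at least 4-fold higher, 414 of them among the 434. The counts also rose without spleen replicate 1 (1490 and 486), spleen replicate 3 (1454 and 502) or brain replicate 1 (1501 and 490). The rise was therefore not particular to replicate 2.

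**Figure D1:**
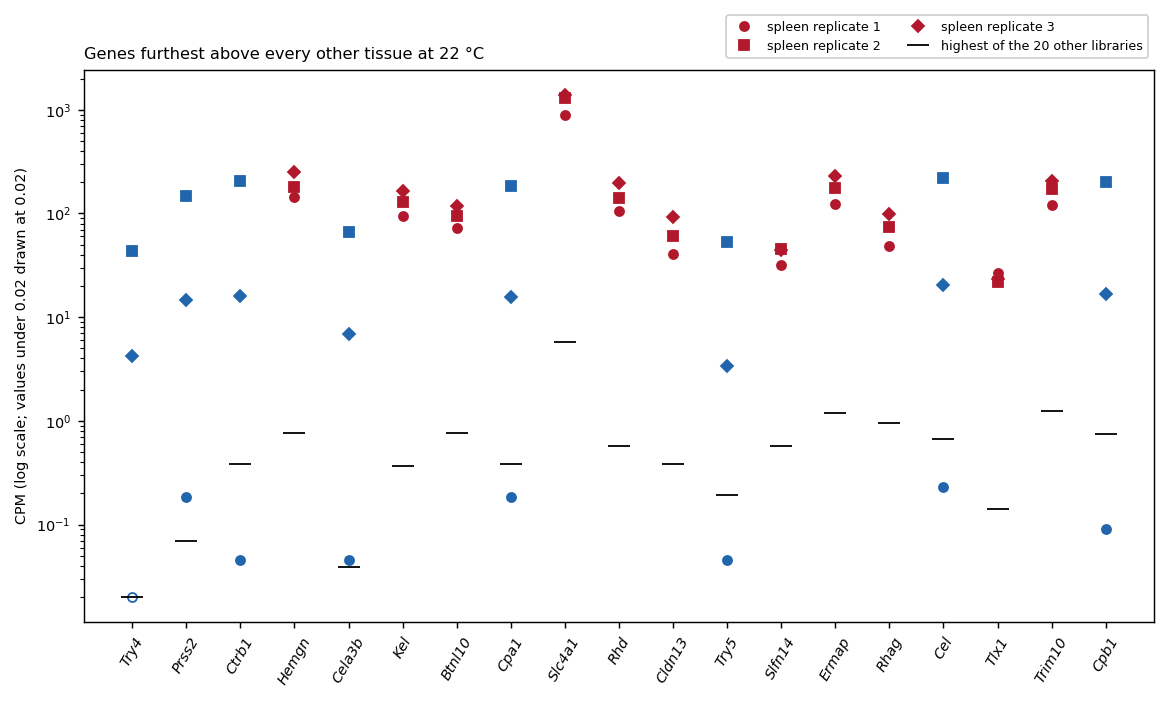
Named genes of at least 10 CPM with the largest excess of spleen over its nearest tissue, in order, with the y axis showing CPM on a log scale. Red symbols are spleen libraries, blue ones those of genes that differ over 10-fold between spleen libraries, and black bars the highest of the 20 libraries of other tissues. The blue genes are pancreatic enzymes, highest in replicate 2. By the colour rule the red genes differ by no more than 10-fold between spleen libraries, and all genes shown were chosen for their excess in spleen.

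The erythroid genes led the ranking once the enzymes were set aside. Of 24 genes tested from a list of 25 red blood cell genes, 23 were higher than in each tissue and 21 at least 4-fold higher, against 7.83% and 2.52% of all genes. Their median log2 fold change over the mean of the 7 tissues was 8.72 (8.48 with tissues at 0 counts set to a floor of 3 counts over their libraries), against -0.215 for all genes. The list summed to 11609, 23198 and 24101 CPM in spleen and to at most 1454 CPM in any other library, so that the groups did not overlap although replicate 1 was the lowest of the spleen libraries.

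Hemgn, a nuclear protein of blood precursors, was at 145, 179.9 and 249 CPM, and its nearest tissue was brain with 9 counts in its libraries together (log2 fold change 9.56 ± 0.62, adjusted p = 9.68e-11). Kel, the Kell blood group peptidase of the red cell surface, was at 95.5, 130.3 and 166 CPM (log2 fold change 9.36 ± 0.56 over brain, adjusted p = 1.80e-10). Neither was above 0.766 CPM in any of the other 20 libraries. Slc4a1, the chloride-bicarbonate exchanger band 3, was the strongest of these by level at 889, 1287 and 1393 CPM, against 2.44 to 3.61 CPM in VAT (8.65 ± 0.49, adjusted p = 8.71e-12). The same 3 libraries lay in the same order for each of these 3 genes, lowest in replicate 1 and highest in replicate 3. The Rh blood group genes Rhd (106, 140.5 and 198 CPM) and Rhag (48.5, 74.6 and 98.3 CPM), the erythroblast surface gene Ermap (123, 174 and 231 CPM) and the erythroid gene Trim10 (119, 171 and 207 CPM) followed, at 164 to 356 times their nearest tissue.

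Btnl10, a butyrophilin-like gene, stood among them at 71.7, 93.5 and 118 CPM, with liver nearest and at most 4 counts in any other library. The tight junction gene Cldn13 was at 40.4, 61 and 93.3 CPM, with a log2 fold change of 8.40 ± 0.61 over ileum. Slfn14, a member of the Schlafen family linked to platelets and red cells, was at 31.9, 45.9 and 44.8 CPM, with 7.64 ± 0.55 over VAT. These 3 genes were high in all 3 spleen libraries, and their lowest spleen value lay above the highest value of any other library. They were named for their excess over every tissue, so this separation is no separate result.

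The haemoglobin genes were the most abundant but not the most particular. Per kilobase of exon, Hbb-bs was the first of all genes in spleen at 12768 CPM per kb, Hbb-bt the third at 3572 and Hba-a1 the seventh at 1571. Hbb-bs was at 5394, 12154 and 11871 CPM, and at 541 to 1004 CPM in VAT, a log2 fold change of 3.62 ± 0.39 (adjusted p = 9.31e-08). All tissues held haemoglobin RNA, and the log2 fold changes of the 4 haemoglobin genes over their nearest tissue, VAT, were 3.62 to 4.32, against 7.44 or more for Kel, Slc4a1, Rhd, Rhag and Ermap. Near-identical copies, such as Hba-a1 and Hba-a2, share reads, so their split between the pair is uncertain.

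Regulators of the lineage were present at lower levels. Gata1, the transcription factor that drives red cell and platelet formation, was at 31.5, 44.3 and 67.9 CPM and at 0.0916 to 0.803 CPM in SAT (6.87 ± 0.59, adjusted p = 3.87e-09). Klf1, which turns on adult globin genes, was at 82.9, 95.7 and 178 CPM (4.53 ± 0.36 over liver, adjusted p = 4.95e-10). Gfi1b, a repressor needed in both lineages, was at 22.7, 33.4 and 48.3 CPM (5.27 ± 0.43 over VAT). The exceptions of the list, not 4-fold higher than in each tissue, were Tfrc, Alas2 and Sptb. The transferrin receptor Tfrc was at 358, 533 and 735 CPM with 234 to 513 CPM in BAT (0.52 ± 0.31, adjusted p = 0.14), and the haem synthesis enzyme Alas2 and the spectrin Sptb were higher than in each tissue but by less than 4-fold, with liver (1.68 ± 0.28) and brain (0.84 ± 0.21) nearest.

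Promoters of these genes are shown because many of them share short GATA motifs, the letters that GATA factors such as Gata1 are known to bind. RefSeq promoter windows on GRCm38.p6 (250 bases before to 50 after the start) were at hand for 18 of the 25 listed erythroid genes. The hexamers AGATAA or TGATAA, on either strand, were found in the windows of 14 of the 18 genes (77.8%), against 5664 of 27025 genes (21%) with any window. Capitals mark the hexamer or its reverse complement in the windows of Hemgn at chr4:46404134-46404433 (minus strand), Kel at chr6:41704276-41704575 (minus strand), Rhag at chr17:40810899-40811198 (plus strand) and Klf1 at chr8:84901732-84902031 (plus strand), each written 5′ to 3′ on the gene's strand.
Hemgn: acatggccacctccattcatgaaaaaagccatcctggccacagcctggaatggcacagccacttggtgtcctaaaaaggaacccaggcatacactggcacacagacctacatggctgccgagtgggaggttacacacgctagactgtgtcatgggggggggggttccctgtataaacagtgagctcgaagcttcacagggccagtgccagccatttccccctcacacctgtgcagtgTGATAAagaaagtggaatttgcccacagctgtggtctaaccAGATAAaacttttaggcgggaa
Kel: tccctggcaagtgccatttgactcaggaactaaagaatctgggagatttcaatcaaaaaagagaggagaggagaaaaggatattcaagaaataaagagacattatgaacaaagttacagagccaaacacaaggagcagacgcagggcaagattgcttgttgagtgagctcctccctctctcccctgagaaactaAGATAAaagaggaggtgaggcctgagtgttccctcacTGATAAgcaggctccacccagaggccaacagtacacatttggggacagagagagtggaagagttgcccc
Rhag: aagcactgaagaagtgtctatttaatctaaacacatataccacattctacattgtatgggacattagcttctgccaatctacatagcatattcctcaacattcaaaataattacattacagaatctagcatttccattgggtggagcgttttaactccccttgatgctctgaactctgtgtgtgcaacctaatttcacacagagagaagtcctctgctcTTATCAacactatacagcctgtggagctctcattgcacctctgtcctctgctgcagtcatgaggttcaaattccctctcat
Klf1: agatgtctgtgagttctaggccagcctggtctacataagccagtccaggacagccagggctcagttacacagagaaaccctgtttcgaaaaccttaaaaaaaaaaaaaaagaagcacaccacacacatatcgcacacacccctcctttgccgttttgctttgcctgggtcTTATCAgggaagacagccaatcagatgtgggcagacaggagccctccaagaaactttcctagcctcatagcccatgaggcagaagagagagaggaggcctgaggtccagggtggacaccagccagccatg

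In Hemgn the matches began 13 bases before the start and at base 29 of the transcript, in Kel 56 and 19 bases before it, in Rhag 31 and in Klf1 80 bases before it. The other 10 erythroid genes with a match were Alas2, Epb42, Epor, Ermap, Hba-a1, Hba-a2, Hbb-bs, Rhd, Tal1 and Trim10. The hexamers are short and not particular to this list: 7 of 10 pancreas acinar genes (70.0%) and 5 of 11 platelet genes (45.5%) held them, and 1 of 11 B cell genes (9.09%). Another 5 motifs were searched on both strands. The octamer ATTTGCAT, in 1.97% of all genes, was in no window of a B cell gene. GAGGAAGT, in 3.69% of all genes, was in 5 of 14 neutrophil genes (Elane, Mmp8, Mpo, Prtn3 and S100a8). AGGAAGTG, which overlaps it by 7 letters and was in 4.68% of all genes, was in 4 of 11 T cell genes (Cd247, Cd3d, Cd3e and Lck). CCACACCC (4.09%) was in 1 erythroid gene, Hbb-bs, and the EBF motif (1.06%) in 1 B cell gene, Cd22. A match describes the letters of a window and was not tested for binding.

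B cell genes were the most uniform group. All 16 listed genes were at least 4-fold higher in spleen than in each tissue, and again all 16 without spleen replicate 2 and all 16 in the 10 °C libraries. Their median log2 fold change was 7.25 over the mean of the 7 tissues and 3.49 over the nearest tissue, against -0.215 and -1.69 for all genes. The list summed to 4775, 4001 and 3895 CPM in spleen, 105, 227 and 551 CPM in SAT and 53.9, 281 and 675 CPM in ileum, and to no more than 55.5 CPM in any library of the other 5 tissues. SAT and ileum libraries thus held B cell genes in amounts that differed several-fold within each tissue, always below the spleen.

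Cr2, the complement receptor of B cells and follicular dendritic cells, was at 669, 593 and 598 CPM, and at 2.45 to 82.6 CPM in ileum (4.03 ± 0.73, adjusted p = 7.35e-05). Ms4a1, which encodes CD20, was at 575, 540.4 and 525 CPM (3.96 ± 0.76 over ileum, adjusted p = 1.43e-04). Cd79b, a signalling chain of the B cell receptor, was the highest of the list per length at 296 CPM per kb, with 466, 404 and 402 CPM (3.87 ± 0.50, adjusted p = 1.28e-06). The spleen libraries differed little for these genes, with standard deviations of 42.8, 25.5 and 36.3 CPM. Pax5, the factor that keeps B cell identity, was at 277, 218 and 203 CPM with SAT nearest (3.55 ± 0.74). The smallest excess was that of Pou2af1, a coactivator also used by plasma cells, at 181, 155 and 142 CPM against 17.2 to 46.3 CPM in ileum (2.38 ± 0.37, adjusted p = 1.11e-05).

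The antibody classes separated spleen from ileum. Ighm, the constant region of IgM, was at 5629, 4790.2 and 3809.7 CPM and at 145 to 375 CPM in VAT, its nearest tissue (4.18 ± 0.62, adjusted p = 6.27e-06). The IgG genes Ighg2c (157, 117 and 106 CPM) and Ighg3 (123, 191 and 73.9 CPM) had log2 fold changes of 6.03 ± 0.64 and 5.97 ± 0.80 over ileum. Igha, the constant region of the IgA of mucosal surfaces, went the other way, at 589.99, 761 and 750.3 CPM in spleen and 4126 to 5087 CPM in ileum (-2.72 ± 0.40, adjusted p = 6.65e-06). The light chain gene Igkc was at 2151, 2091 and 1696 CPM in spleen and 2283 to 2334 CPM in ileum (-0.22 ± 0.38, adjusted p = 0.64). In all, 6 of 8 constant region genes were higher than in each tissue, 4 without spleen replicate 2, against 7.83% of all genes in the main fit. Of 161 variable segments of immunoglobulins 31 were higher than in each tissue and 108 were not over 1.5-fold higher than in ileum. Such segments are near copies of each other and their reads may be split unevenly.

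Plasma cell genes did not set the spleen apart from ileum. Of 8 listed genes 6 were higher than the mean of the 7 tissues, against 26% of all genes. Their median log2 fold change was 2.26 over that mean, against -0.215 for all genes, and -0.99 over ileum. Only 1 was higher than in each tissue, against 7.83% of all genes. It was Mzb1, a chaperone of antibody-secreting cells, at 76.8, 66.7 and 58.3 CPM (1.63 ± 0.32 over ileum, adjusted p = 1.99e-04). Jchain, which links IgA and IgM chains, was at 588, 606 and 470.2 CPM and higher in ileum at 1490.4 to 1566 CPM (-1.47 ± 0.34, adjusted p = 8.69e-04). Sdc1 and Xbp1, used by hepatocytes as well, were higher in liver (-5.33 ± 0.33 and -1.43 ± 0.20).

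**Figure D2:**
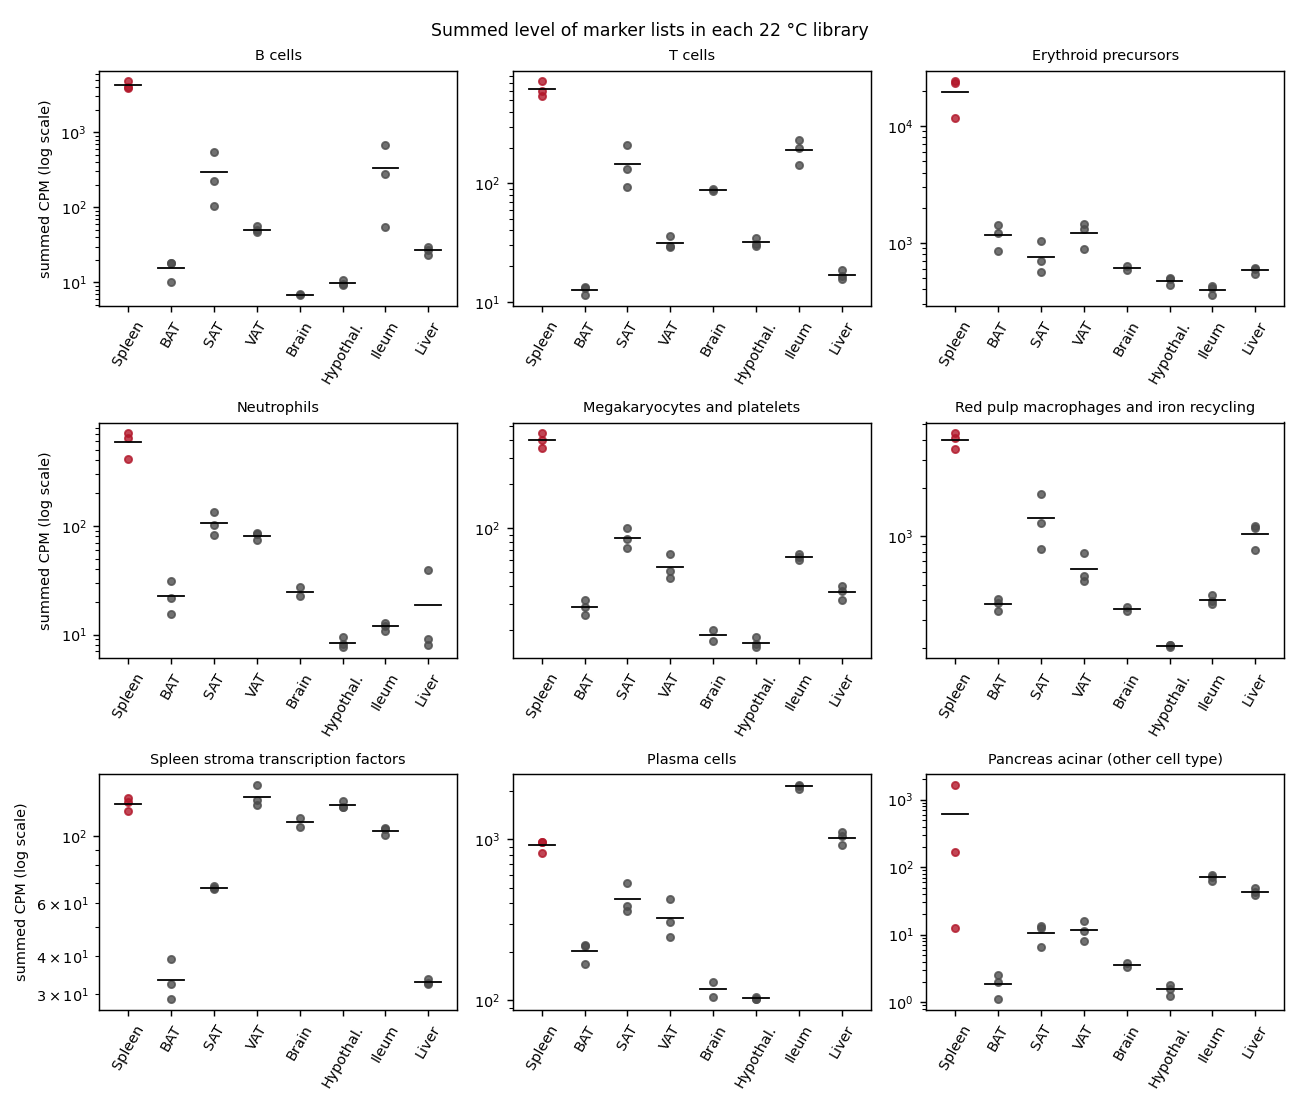
Summed CPM of 9 gene lists (y axes, log scale) in each 22 °C library of 8 tissues, where points are libraries and bars means. Spleen (red) lies above every other library for B cell, T cell, erythroid, neutrophil, platelet and macrophage lists. For plasma cells it lies below ileum and overlaps liver, and for stroma factors it lies among other tissues. Pancreas genes are spread from 12.5 to 1647 CPM in spleen.

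T cell and cytotoxic genes were mostly higher in spleen, fewer of them by 4-fold. Of 15 T cell genes 13 were higher than in each tissue and 6 at least 4-fold, against 7.83% and 2.52% of all genes. The 4-fold count was 9 without replicate 2 and 9 under library size scaling. SAT or ileum was nearest for all but Bcl11b. Cd4 was at 67.5, 53.5 and 47.4 CPM and at 9.46 to 14.6 CPM in ileum (2.18 ± 0.18, adjusted p = 2.23e-09). Cd8a was at 57.6, 49.7 and 47.3 CPM and at 15.2 to 27.3 CPM in ileum (1.23 ± 0.27, adjusted p = 5.79e-04). The difference over ileum was smaller in size for Cd8a than for Cd4, and the gap between them was not tested. This order did not hold for Cd8b1, also on the list, whose smallest log2 fold change was 2.29, over SAT. Ccr7, the receptor that leads naive T cells to T zones, had the largest excess of the list at 80.1, 77.4 and 64.9 CPM (2.69 ± 0.45 over SAT). Cd3e missed the call at 17.1, 15.9 and 13.9 CPM against 7.95 to 10.5 CPM in ileum (0.77 ± 0.35, adjusted p = 0.063). Bcl11b, which neurons also use, was higher in brain (-1.11 ± 0.31).

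Of 10 genes of natural killer and cytotoxic cells, 8 were higher in spleen than in each tissue and 2 at least 4-fold. The shares of all genes were 7.83% and 2.52%. Under library size scaling 7 of the 10 were at least 4-fold higher. The perforin gene Prf1 was at 20.1, 17.7 and 19.7 CPM (2.59 ± 0.30 over SAT, adjusted p = 2.32e-07). The granzymes of the same granules were higher in ileum, Gzma at 33.1, 40.3 and 38.5 CPM in spleen and 72.9 to 153 CPM in ileum (-1.54 ± 0.29), and Gzmb with a log2 fold change of -2.94 ± 0.35. Of 10 dendritic cell genes 8 were higher than in each tissue and 2 at least 4-fold, against the same shares of all genes. Under library size scaling 4 of them were at least 4-fold higher. The chemokine receptor Xcr1 of cross-presenting cells was at 19.4, 21.3 and 18.9 CPM (2.59 ± 0.33 over ileum, adjusted p = 8.25e-07). Zbtb46 (-0.06 ± 0.13 over BAT, adjusted p = 0.71) and Cd209a (-0.27 ± 0.42 over SAT, adjusted p = 0.6) did not pass the test.

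Part of the red pulp macrophage list was higher in spleen than in every other tissue. Of its 16 genes 8 were higher than in each tissue and 5 at least 4-fold, against 7.83% and 2.52% of all genes. The 5 were Spic, Vcam1, Hmox1, Adgre4 and Treml4. The first count depended on the scaling and the libraries, with 14 of 16 under library size scaling and 12 of 16 in the 10 °C libraries. Spic, the transcription factor of red pulp macrophages, was at 107, 129 and 118 CPM and at 1.83 to 5 CPM in SAT (5.29 ± 0.39, adjusted p = 4.12e-10). Hmox1, which breaks down haem, was at 406, 509 and 489 CPM (3.53 ± 0.30 over SAT, adjusted p = 3.44e-09). Vcam1, an adhesion molecule of these macrophages and of endothelium, was at 578, 789.99 and 743 CPM (4.13 ± 0.43 over brain, adjusted p = 3.04e-08). In these 3 genes, taken from the 5 at least 4-fold higher, the spleen values stood apart from every other library.

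The iron exporter Slc40a1 was at 606, 789 and 701 CPM and at 268 to 328 CPM in liver, the other organ of iron recycling (1.27 ± 0.20, adjusted p = 1.25e-05). Cd5l, secreted by macrophages, was at 109, 143 and 119.7 CPM in spleen and 74.5 to 172 CPM in liver (-0.01 ± 0.60, adjusted p = 1.0). The complement genes C1qa, C1qb and C1qc had log2 fold changes of 0.22 ± 0.26, 0.15 ± 0.25 and 0.54 ± 0.23 over SAT, none called. Cd163, the haemoglobin scavenger receptor, was lower in spleen than in SAT (51, 76.1 and 67.5 CPM against 121 to 178 CPM, -1.28 ± 0.27, adjusted p = 3.89e-04).

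Of 7 marginal zone genes 3 were higher than in each tissue, against 7.83% of all genes. Marco, a scavenger receptor of marginal zone macrophages, was at 148, 141 and 139 CPM and at 10.7 to 42.9 CPM in liver (2.37 ± 0.34, adjusted p = 3.34e-06). Siglec1, the marker of metallophilic macrophages, was at 105, 108 and 98.6 CPM and at 56.5 to 194 CPM in SAT (-0.28 ± 0.29, adjusted p = 0.4). Cd209b was at 23, 23.2 and 23.4 CPM and at 25.4 to 37.9 CPM in SAT (-0.37 ± 0.28, adjusted p = 0.26). Only Marco of this list was at least 4-fold higher than in each tissue, against 2.52% of all genes.

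Platelet and granulocyte genes were the other blood lineages of the spleen. Of 13 megakaryocyte genes 10 were higher than in each tissue and 8 at least 4-fold, against 7.83% and 2.52% of all genes. Ppbp, a platelet chemokine, was at 75.4, 100.2 and 109 CPM (4.93 ± 0.37 over VAT, adjusted p = 5.80e-10). Tubb1, the platelet tubulin, was at 31.3, 32.5 and 38.3 CPM and at 0.371 to 1.46 CPM in SAT (5.44 ± 0.34, adjusted p = 3.27e-11). Pf4 was at 25.2, 35 and 37.7 CPM and not above SAT (39.6 to 53.6 CPM, -0.48 ± 0.21, adjusted p = 0.059).

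Of 15 neutrophil genes 12 were higher than in each tissue and 11 at least 4-fold, against 7.83% and 2.52% of all genes. The list summed to 411, 641 and 712 CPM in spleen, to 82 to 134 CPM in SAT and to 73.7 to 86.3 CPM in VAT, with replicate 1 lowest as for the erythroid genes. S100a9, a calcium-binding protein of granulocytes, was at 102, 196 and 205 CPM (5.11 ± 0.45 over brain, adjusted p = 2.46e-09). Genes of granules made in neutrophil precursors were present as well, Mpo at 15.1, 19.6 and 24 CPM (4.90 ± 0.62 over brain) and Ngp at 29, 36.5 and 57.7 CPM (4.01 ± 0.44 over brain). Lcn2 was at 12.1, 16.9 and 22.6 CPM and at 23.2 to 50.5 CPM in VAT (-0.98 ± 0.68, adjusted p = 0.2).

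The transcription factors of the spleen stroma included the gene most restricted to the organ outside the blood lineages. Tlx1, without which no spleen forms in mice, was at 26.5, 21.9 and 23.4 CPM, with at most 3 counts in any of the 20 other libraries and none at all in 5 of the 7 tissues (7.37 ± 0.49 over brain, adjusted p = 1.98e-07). Its SD was 2.34 CPM, the smallest of the genes in the plot of leading genes. Nkx2-5, better known from the heart, was at 6.24, 4 and 4.83 CPM and at no more than 0.191 CPM elsewhere. Tcf21 was at 33.7, 30 and 39.2 CPM (2.21 ± 0.22 over ileum, adjusted p = 1.75e-07) and Nkx3-2 at 3.78, 3.78 and 3.54 CPM (3.04 ± 0.60 over ileum). These 4 of 7 tested genes were at least 4-fold higher than each tissue, against 2.52% of all genes. Nkx2-3 was shared with ileum (0.53 ± 0.28, adjusted p = 0.11) and Wt1 with VAT (-0.15 ± 0.28, adjusted p = 0.65).

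Of 12 chemokines, cytokines and receptors that lay out lymphoid tissue, 7 were at least 4-fold higher than each tissue, against 2.52% of all genes. They were Cxcl13, Ccl19, Ccl21a, Ltb, Lta, Cxcr5 and Ccr7. Cxcl13, which draws B cells into follicles, was at 77.8, 67.6 and 65.5 CPM and at 3.68 to 26.7 CPM in ileum (2.28 ± 0.45, adjusted p = 2.27e-04). Ccl19, its counterpart for T cells, was at 13.7, 10.3 and 12.9 CPM (2.82 ± 0.61 over SAT, adjusted p = 4.79e-04). Ltb, one of the lymphotoxins that keep the stroma in place, was at 176, 135 and 156 CPM (3.50 ± 0.46 over SAT). Their receptor Ltbr, which many cell types carry, was higher in liver (-2.64 ± 0.16), and Cxcl12 was as well (-0.80 ± 0.18).

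Antigen presentation and cell division were high in spleen and close to ileum. The 10 MHC class II genes summed to 8039.6, 6941 and 6549.9 CPM in spleen and 3128 to 4387 CPM in ileum. Cd74, the invariant chain, was the fifth gene of the spleen per length at 1699 CPM per kb and missed the call against ileum (3158, 2769.6 and 2630.04 CPM against 1327 to 1733 CPM, 0.89 ± 0.45, adjusted p = 0.092). The genes H2-Oa, H2-Ob and H2-DMb2 of peptide loading in B cells were the 3 at least 4-fold higher, against 2.52% of all genes. Their log2 fold changes were 3.55 ± 0.55, 3.30 ± 0.63 and 3.37 ± 0.53 over their nearest tissues. Of 20 cell cycle genes 11 were higher than in each tissue and 1, Rrm2, at least 4-fold, against 7.83% and 2.52% of all genes. Under library size scaling 4 of them were at least 4-fold higher. Ileum was nearest for all 20. Mki67, a marker of dividing cells, was at 879, 1191 and 1409.9 CPM and at 514 to 609 CPM in ileum (1.02 ± 0.32, adjusted p = 0.0086), while Top2a did not pass (0.19 ± 0.30, adjusted p = 0.6). The replication genes Mcm2 to Mcm7 all passed, with 1.10 to 1.76 on the log2 scale.

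Of 15 transcription factors of blood lineages, 12 were higher than in each tissue and 8 at least 4-fold, against 7.83% and 2.52% of all genes. Ikzf1, needed in all lymphocytes, was at 271, 263 and 260.5 CPM (2.58 ± 0.26 over SAT, adjusted p = 3.28e-08). Myb was higher in ileum (-0.96 ± 0.19, adjusted p = 1.46e-04), and Ebf1 was at 184, 158 and 133 CPM against 255 to 327 CPM in VAT, where fat precursors use it (-0.84 ± 0.38, adjusted p = 0.051).

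**Figure D3:**
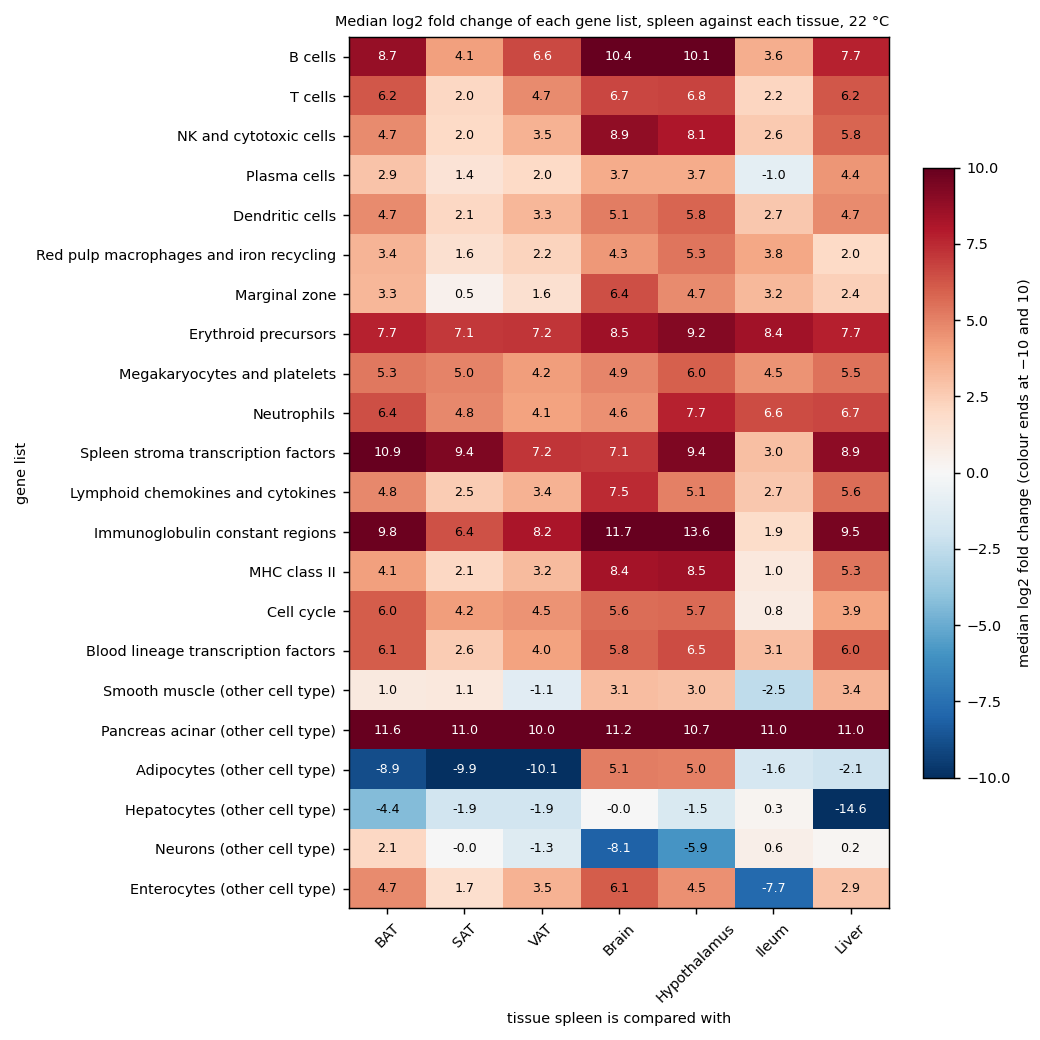
Median log2 fold change of each gene list (rows) of spleen over each tissue (columns) at 22 °C, where red is higher in spleen, blue lower, and the number is the median. The blood and lymphoid lists are red in every column but for plasma cells against ileum (-1.0), and the lists of adipocytes, hepatocytes, neurons and enterocytes are blue in the tissue they belong to.

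Markers of adipocytes, hepatocytes and neurons were low in spleen against the tissues they belong to. The 8 adipocyte genes summed to 68.9, 70 and 25.1 CPM against 47225 to 56600.1 CPM in SAT, the 8 hepatocyte genes to 5.47, 11.6 and 34.1 CPM against 137652 to 153955 CPM in liver, and the 6 neuron genes to 9.53, 8.81 and 6.6 CPM against 4096 to 4427 CPM in brain. The neuron marker Snap25 had 0 counts in 2 of the 3 spleen libraries. Most of the hepatocyte sum of replicate 3 was Apoa1, at 0.912, 0.602 and 29 CPM, a gene that enterocytes share. Of the 6 smooth muscle genes 4 were higher than the mean of the 7 tissues, against 26% of all genes, and none was higher than in each tissue. The list summed to 349, 326 and 323 CPM in spleen, where smooth muscle lies in the capsule and vessels. It summed to 483 to 548 CPM in BAT and 119 to 242 CPM in SAT. In VAT the sum was 154 to 1399 CPM and in ileum 1128 to 2103 CPM.

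Taken pair by pair, genes higher and lower in spleen made up 30% and 32.7% of all genes against BAT, 24.1% and 29.9% against SAT, and 25.6% and 37.2% against VAT. They made up 33.6% and 36.8% against brain, 31.6% and 36.8% against hypothalamus, 24.7% and 28.2% against ileum, and 32.9% and 30.3% against liver. With library size scaling the share of calls that were higher went from 47.9% to 69% against BAT, from 44.7% to 62.4% against SAT, from 40.7% to 52.6% against VAT, from 47.7% to 55.8% against brain, from 46.2% to 51.7% against hypothalamus, from 46.7% to 65.3% against ileum and from 52.1% to 82.1% against liver. These pairwise directions are therefore not separable from the scaling. The tissues nearest to the spleen were SAT and ileum. SAT was nearest for 171 of the 434 genes (39.4%) and ileum for 151 (34.8%), while BAT was nearest for 5. Over all genes the spleen libraries correlated with each other at 0.98 to 0.99 on log2 CPM, with SAT at 0.80 to 0.84, with ileum at 0.75 to 0.81 and with brain at 0.53 to 0.55. When ileum was left out, the count of genes higher than each tissue rose to 2134 and that of 4-fold genes to 957.

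Genes at least 4-fold higher in spleen than in 6 tissues, but not over 1.5-fold higher than in the seventh, numbered 228 for ileum, 26 for liver, 4 for VAT, 2 for BAT, 1 for brain and 0 for SAT and hypothalamus. For ileum the 5 most abundant, antibody segments set aside, were Jchain, Top2a, Atp2a3, Kif11 and Cenpf, so the antibody chain stood beside genes of cell division. Of the 228, 60 were called lower in spleen than in ileum. Many of the 228 were immunoglobulin segments. Others were far higher in ileum, such as Zg16 (23.2 CPM in spleen, 2651 CPM in ileum) and Cdh17 (16.7 and 1890 CPM). The listed pancreas gene Clps was among them too (15.5 and 66.4 CPM). What the enterocyte genes of spleen replicate 3 and the pancreatic genes of replicate 2 add to this count was not tested. For liver the 5 most abundant were Tnfaip2, Cpox, Cd5l, Zfpm1 and Abcb4. Cpox, an enzyme of haem synthesis, was at 105, 128 and 204 CPM and at 232 to 286 CPM in liver (-0.79 ± 0.19, adjusted p = 9.83e-04). Zfpm1, the partner of GATA factors also called FOG-1, was at 107, 93.3 and 155 CPM and at 89.9 to 107 CPM in liver (0.28 ± 0.20, adjusted p = 0.22). For VAT they were Wt1, Fndc7, Cuzd1 and Irgc1, for BAT Ankrd2 and Tarm1, and for brain Rln3.

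**Figure D4:**
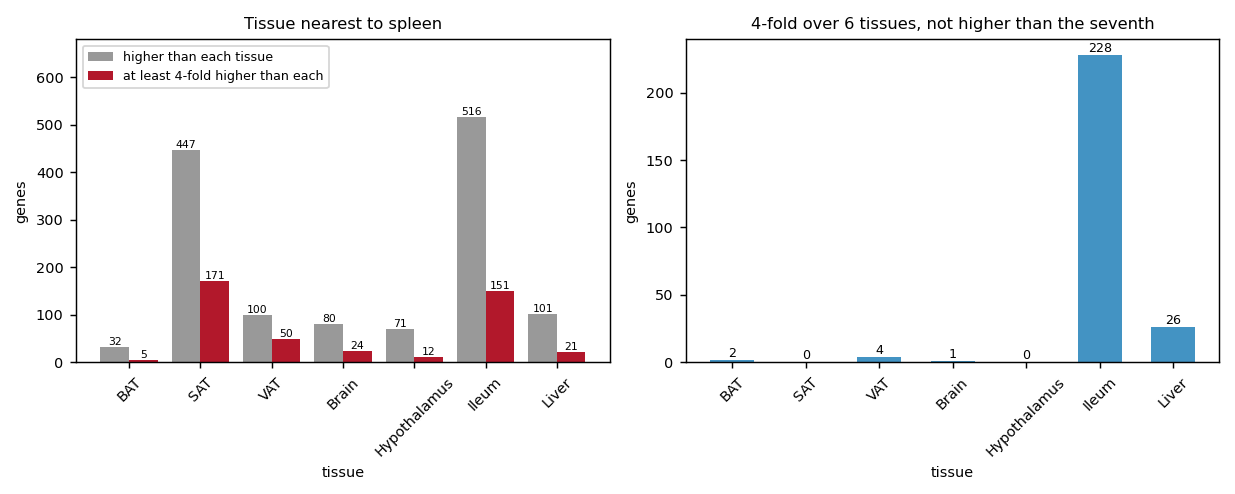
Left, number of genes (y axis) higher in spleen than in each tissue (grey) and at least 4-fold higher than each (red), by nearest tissue (x axis). Right, genes at least 4-fold higher than 6 tissues but not over 1.5-fold higher than the one named. SAT and ileum are the nearest tissues on the left, with 171 and 151 of the 4-fold genes, and ileum holds 228 genes on the right.

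Among the 811 genes lower in spleen than in each tissue, the 10 furthest below by fitted fold change were Gstm6, Clmn, Cxcl14, Pclo, Slc2a5, Slc4a4, Ctf1, Aspg, Agt and Hhatl. Clmn, an actin-binding membrane protein, was at 0.41, 0.328 and 0.376 CPM in spleen, and its log2 fold change was -6.27 ± 0.41 against BAT, its nearest tissue from below. Slc4a4, a sodium bicarbonate cotransporter, was at 1.19, 1.53 and 2.9 CPM and at 58.8 to 74.5 CPM in VAT (-5.14 ± 0.36, adjusted p = 1.66e-10). Agt, the precursor of angiotensin, was at 0.228, 0.164 and 0.161 CPM and at 6.2 CPM in BAT and 926 CPM in liver on average. These 3 genes were chosen from those called lower than in each tissue, so their place below all 7 tissue means follows from that choice. The glutathione transferase gene Gstm6 and Hhatl had 0 counts in all 3 spleen libraries, which allows up to 0.051 CPM, so that Gstm6 was at least 27.5-fold and Hhatl at least 4.38-fold lower than in each tissue. The place of Hhatl among the 10 rests on its fitted value and not on this bound. Hhatl lost its call when liver replicate 3 was left out.

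The count was repeated in 24 libraries of the same 8 tissues from mice housed at 10 °C, none of which entered the fit above. There, 1113 of 17113 genes (6.5%) were higher in spleen than in each tissue, 372 (2.17%) at least 4-fold, and 860 (5.03%) lower than in each. Against the mean of the 7 tissues 25.4% were higher and 30.6% lower. Of the 426 genes of the 22 °C set that were tested, 297 (69.7%) were again at least 4-fold higher and 380 (89.2%) again higher than each, and the 297 were 79.8% of the 10 °C set. All 16 B cell genes, 21 of 24 erythroid genes, 7 of 13 megakaryocyte genes and 7 of 12 chemokine genes were at least 4-fold higher at 10 °C. Tlx1 was at 25.5, 23.4 and 25.5 CPM there.

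Fewer neutrophil and T cell genes reached 4-fold at 10 °C. Of the neutrophil list 6 of 14 genes did, and of the T cell list 2 of 15. S100a9 was at 33.8, 37.3 and 36.6 CPM in the 10 °C spleen, against 102, 196 and 205 CPM at 22 °C, with its smallest log2 fold change at 2.09. Ngp was at 6.04, 8.06 and 5.71 CPM there, with 0.98. Klrb1c, the NK1.1 receptor, went from a smallest log2 fold change of 2.45 ± 0.44 over VAT to -2.70 over VAT, while its spleen values were 19.1, 18.4 and 20.8 CPM at 10 °C and 19.1, 20.2 and 19.7 CPM at 22 °C. The difference between the temperatures was not tested in these counts, and each set of fold changes depends on the other tissues of its own temperature too.

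**Figure D5:**
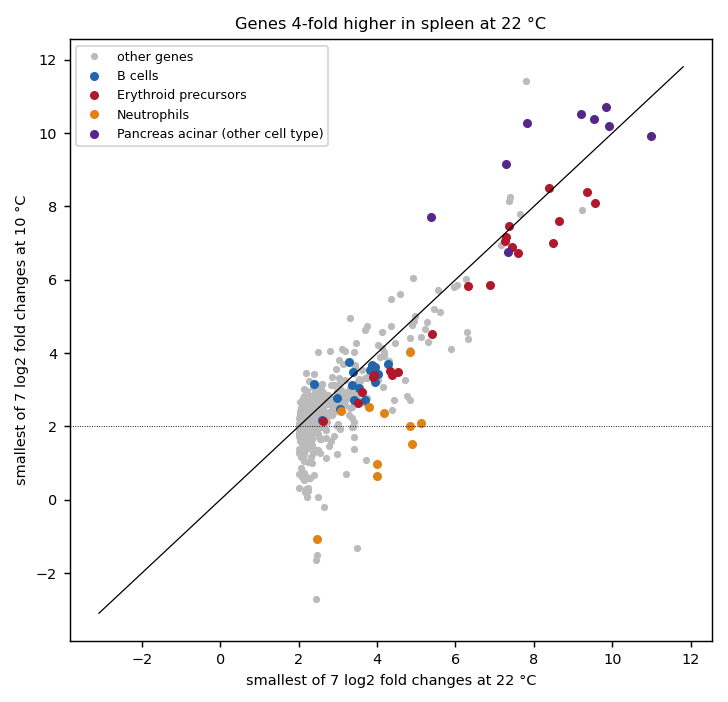
Smallest of the 7 log2 fold changes of spleen over a tissue at 22 °C (x axis) and at 10 °C (y axis) for the 426 genes at least 4-fold higher at 22 °C and tested in both, where the line marks equal values and the dotted line 4-fold. Of all 426 genes, which were chosen by their 22 °C values, 294 (69%) lie below the line, as do all 10 neutrophil genes, 19 of 21 erythroid and 13 of 16 B cell genes and 2 of 9 pancreas genes.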

How the data were processed

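Total RNA libraries of mouse tissues were sequenced, and the deposited values used here were the raw read counts per gene that the authors made. Their notes name STAR 2.5.3a, HTSeq 0.6p1 and mm10, and the study's methods name STAR 2.6.0c and HTSeq 0.9.1. Groups followed the labels. The titles give the temperature group (RT), while the treatment field names another temperature for every sample. Brain RT replicate 2 was left out by the rule for this comparison and was added back as an alternative.

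Genes with a mean above 1 CPM in at least 1 of the 8 tissues were kept. One model with a mean per tissue was fitted with edgeR 4.0.16 (R 4.3.3), TMM scaling and the quasi-likelihood F-test on 15 residual degrees of freedom, with Benjamini-Hochberg adjustment. Named genes were the members of the gene lists, the 20 genes of at least 10 CPM furthest above their nearest tissue, the 10 furthest below and, for each tissue, up to 5 genes shared with it. Some of these genes are not reported here. Members and lists were chosen with earlier results of these data known. The procedure was tested on simulated data. Alternatives were DESeq2 1.42.0, library size scaling, other filters and fold limits, a replicate block, and leaving out each library or tissue.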

Additional observations from a re-analysis of the deposited data

Results flagged for a closer look

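Among 270 named genes and 7 tissues, 3 hepatocyte genes lay with all spleen libraries on one side of all BAT libraries at 22 °C and on the other side at 10 °C. The difference between the temperatures was not tested. Alb, which encodes albumin, was at 0.41 to 2.9 CPM in spleen and 40.7 to 79.5 CPM in BAT at 22 °C, and at 0.675 to 5.58 CPM in spleen and 0 to 0.479 CPM in BAT at 10 °C, with log2 fold changes of -5.02 and 3.14. Ahsg, a liver glycoprotein of plasma, was at 5.01 to 11.8 CPM in BAT at 22 °C and at 0 in all BAT libraries at 10 °C, and its fitted log2 fold changes were -5.13 and 6.17. Fgb, a fibrinogen chain, was at 3.97 to 6.72 CPM in BAT at 22 °C and at 0 at 10 °C, with -4.32 and 5.32. Spleen reached at most 0.868 CPM for Ahsg and 0.483 CPM for Fgb, and the fitted values against 0 depend on the model's prior count and are no bound. Groups of 2 or 3 libraries were too small for the test of single outlying libraries.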

How the results depend on the processing

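Scaling by library size alone gave 7039 genes higher and 3465 lower than the mean of the 7 tissues, 2360 higher than each tissue, 673 at least 4-fold higher and 333 lower than each, and 571 at least 4-fold higher at 10 °C. With stricter fold limits (2 in place of 1.5, 8 in place of 4) the counts were 159 and, for genes lower than each, 474, and 133 at 10 °C. Leaving out ileum gave 2134 and 957 genes, and 769 at 10 °C, where leaving out SAT gave 618. The construction of the last 2 alternatives shows their cause, a higher limit or fewer tissues, while that of the scaling was not tested.

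When each library was dropped in turn, the fits gave 1299 to 1526 genes higher than each tissue, 393 to 502 at least 4-fold higher, 617 to 817 lower than each, 4454 to 4927 higher and 4800 to 5370 lower than the mean, and 313 to 541 at least 4-fold higher at 10 °C. For single tissues the calls ranged from 10416 to 10909 (BAT), 8877 to 9493 (SAT), 10406 to 10986 (VAT), 11437 to 12224 (brain), 11576 to 11857 (hypothalamus), 8735 to 9318 (ileum) and 10552 to 10984 (liver). DESeq2 gave 1337 genes higher than each tissue, of which 1251 were shared, and 414 at least 4-fold higher, 380 shared. Try4, Cela3b, Cpa1 and Try5 lost their call with DESeq2, Try4 also with all 3 brain libraries and without spleen replicate 2, and Hhatl without liver replicate 3. None of the 30 genes named by rank changed direction, which largely follows from their choice as the genes furthest from every tissue. The majority direction of all calls did change.

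Same-numbered libraries of different tissues did not deviate together (r -0.184 to 0.0856 over 20 pairs). With the replicate number as a block, 1374 genes were higher than each tissue, 453 at least 4-fold higher and 804 lower than each. VAT replicate 3 had the lowest total, 4262403 counts, but the most genes detected of all 22 °C libraries used. It held 19287 genes with at least 1 count, against 18308 in VAT replicate 1 and 17659 in VAT replicate 2. What its low total and its larger number of detected genes add to the VAT calls was not tested.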

Other observations

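Beyond the lists, leukocyte genes of general use made up part of the abundant genes of the spleen. These genes were picked after their values were seen. Ptprc, which encodes CD45 of all white blood cells, was at 1473 CPM on average in spleen, with a smallest log2 fold change of 2.55 over ileum. Coro1a, an actin regulator of leukocytes, was at 666 CPM (2.73 over SAT). Ptpn6, a phosphatase of blood cells, was at 333 CPM (2.75 over ileum). Of the 100 genes with the highest CPM per kb in spleen, 54 were higher than in each tissue and 22 at least 4-fold.

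Coch, best known as a protein of the inner ear and also made by lymphoid stroma, was at 1049 CPM in spleen on average, with brain nearest at a log2 fold change of 4.90. The immunoglobulin segment Igkv4-69 was at 11.4 CPM in spleen replicate 1 and at 0.657 and 0.805 CPM in replicates 2 and 3. It was 1 of 17 among the 434 genes whose spleen libraries differed by more than 10-fold, and the other 16 included the pancreatic genes Pnliprp1, Sycn and Ctrl. Over all 434 genes the highest spleen library was 1.33 times the lowest in the median.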
